A study of Mus musculus with 27 samples.

Results

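The comparison described here sets P301S Cgas+/- mice, which carry the tau transgene and have lost 1 copy of Cgas, against P301S Cgas+/+ mice, which carry the same transgene and keep both copies. Libraries were chosen by their genotype label alone, which gave 12 of the 27 single-nucleus RNA-seq libraries of the series, with 6 libraries in each group and 1 library per mouse. Each group held 3 males and 3 females. The labels give no age and no treatment. All 12 mice express human tau with the P301S mutation from the mouse prion protein promoter, which is active beyond neurons, and the Cgas allele was inherited, so that every cell type carried the loss from the start of life. Nothing in the labels says which mice were littermates. With 1 library per mouse, p-values measure the spread between libraries, in which mouse, dissection and library preparation cannot be separated. Tests across all genes took that spread from 23 libraries of 4 groups, which added tau-free Cgas+/+ and P301S Cgas-/- mice. Permutation tests and the comparison of the sexes used the 12 libraries alone. A nucleus entered the sums if it showed between 200 and 4000 genes and no more than 5% of its UMIs were mitochondrial and it was not a likely doublet, which gave 95692 nuclei in the 12 libraries (44395 P301S Cgas+/- and 51297 P301S Cgas+/+) out of 204852 in the series. UMIs (unique molecular identifiers, each marking 1 captured RNA molecule) were summed per library over each cell class and each hippocampal subfield. Levels are given as CPM, counts per 1000000 UMIs of that class in that library.

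cGAS is an enzyme that senses double-stranded DNA in the cytosol and makes a cyclic dinucleotide, which binds STING and starts a type I interferon response through the kinase TBK1. In the brain the pathway is best known in microglia, and interferon released there acts on neighbouring glia and neurons. The hippocampus holds the excitatory neurons of the dentate gyrus, CA3 and CA1, which differ sharply in the genes they use, and it borders cortex whose excitatory neurons use other genes again.

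Both groups were sequenced to a similar total, with 49254954 to 79198035 UMIs in the P301S Cgas+/+ libraries and 56438050 to 72860458 in the P301S Cgas+/- libraries. The median UMI count per barcode was 2225 to 5827 in the former and 5136 to 7090 in the latter. The ranges overlapped only through P301S Cgas+/+ 4 (5827), since the next highest of its group was P301S Cgas+/+ 6 (4861.5). Barcodes with over 4000 genes, which were left out, had medians of 6.58% in P301S Cgas+/+ and 10.0% in P301S Cgas+/- libraries. The part of depth per barcode in the results was not tested. P301S Cgas+/+ 3 and P301S Cgas+/- 1 stood apart with 52.3% and 26.2% of their nuclei in clusters that could not be named. The unnamed cluster 5, of which P301S Cgas+/+ 3 gave 60.7% of the nuclei, had a median of 779 UMIs and was led by Ttr and mitochondrial transcripts. The unnamed cluster 42, of which P301S Cgas+/- 1 gave 54%, had a median of 6421 UMIs and was led by Rarb and Rgs9, the latter a marker of striatal projection neurons. Values without these 2 libraries are given beside many of the results. Any 2 of the 12 libraries shared 8 to 44 barcodes, at most 0.566% of the smaller library. Classes are named for the type whose markers they carry and stand for nuclei like that type. The microglial class carried Csf1r (mean of 1060 CPM over the 12 libraries) and the inhibitory class Gad1 (318 CPM). Prox1, the transcription factor of granule cells, stood at a mean of 329.6 CPM in dentate granule nuclei and 1.41 CPM in CA1 nuclei, and Mpped1 at 297.5 CPM in CA1 nuclei. Although the tissue is labelled hippocampus, every library held nuclei with cortical markers, in which Cux2 reached a mean of 125.5 CPM and Tshz2 1291 CPM, against 2.70 and 11.8 CPM in hippocampal excitatory nuclei. CA3 nuclei were missing from 1 library of each group, and no cluster was named CA2, so neither subfield was tested across genes. The class names cover most but not all nuclei. Of excitatory nuclei, 6.19 to 45.5% in P301S Cgas+/+ libraries and 26.4 to 35.6% in P301S Cgas+/- libraries belonged to subclusters without a name.

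The targeted gene was examined first. Cgas transcript counts did not follow the labelled number of copies. In microglia, where the gene was best detected, Cgas stood at 26.3, 36.6 and 56.1 CPM (lowest, median and highest library) in P301S Cgas+/+ mice. In P301S Cgas+/- mice it stood at 28.2, 44.6 and 59.6 CPM. The groups overlapped throughout, and the difference of 0.18 ± 0.23 (SE) on the log2(CPM + 1) scale, n = 6 per group, did not pass a two-sided exact permutation test (p = 0.433, adjusted p = 0.579 over 9 single-gene tests). P301S Cgas-/- microglia, with no intact copy, held 40.2, 52.6 and 58.5 CPM. Counts from the 3′ end of a transcript check nothing where they fall outside the deleted part of the gene, and which part the allele lacks is not given in the sources used here. The loss of a copy therefore rests on the genotype labels.

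No member of the cGAS-STING pathway passed the test in microglia. Sting1, the adaptor that cGAS activates, stood at 18.3, 31.3 and 40.2 CPM in P301S Cgas+/+ microglia and at 15.8, 31.6 and 48.8 CPM in P301S Cgas+/- microglia, with full overlap (exact permutation p = 0.935). Of 12 pathway genes tested in microglia, 6 had positive and 6 negative log2 fold changes, with a median of −0.05, or 0.06 without the 2 libraries that stood apart. None passed the adjustment over all genes, and only Rela, the p65 subunit of NF-κB, had an unadjusted p under 0.05 (log2 fold change of −0.46 ± 0.18, SE). The background for that threshold in microglia was 2.14% of the 9077 genes tested. The kinase Tbk1 had a log2 fold change of −0.16 ± 0.12 and Nfkb1 of −0.10 ± 0.14. Samhd1 stood at −0.33 ± 0.19, and Ifi207, an interferon-inducible DNA sensor family member, at −1.19 ± 0.63. These 4 are the pathway genes of highest level in microglia, and none passed.

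Of the shares compared, the largest differences in percentage points were among excitatory subfields, and none passed adjustment. CA1 nuclei made up 4.30, 22.6 and 39.3% of excitatory nuclei in P301S Cgas+/+ libraries (lowest, median and highest) and 0.770, 9.90 and 16.4% in P301S Cgas+/- libraries. Cortical nuclei made up 2.10, 8.71 and 43.7% in P301S Cgas+/+ libraries and 20.9, 34.8 and 60.9% in P301S Cgas+/- libraries. The ranges overlapped for both, and 2 P301S Cgas+/+ libraries held more than 20% cortical nuclei. The mean share of CA1 nuclei was lower by 12.6 percentage points (exact permutation p = 0.0390, two-sided) and that of cortical nuclei higher by 20.9 points (exact permutation p = 0.0541). Neither passed adjustment over the 19 shares compared (adjusted p = 0.370 for both), and 0 of the 19 did. Without the 2 libraries that stood apart, the difference in cortical share was 14.02 points (exact permutation p = 0.175) and that in CA1 share −11.97 points (exact permutation p = 0.0794).

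**Figure D1:**
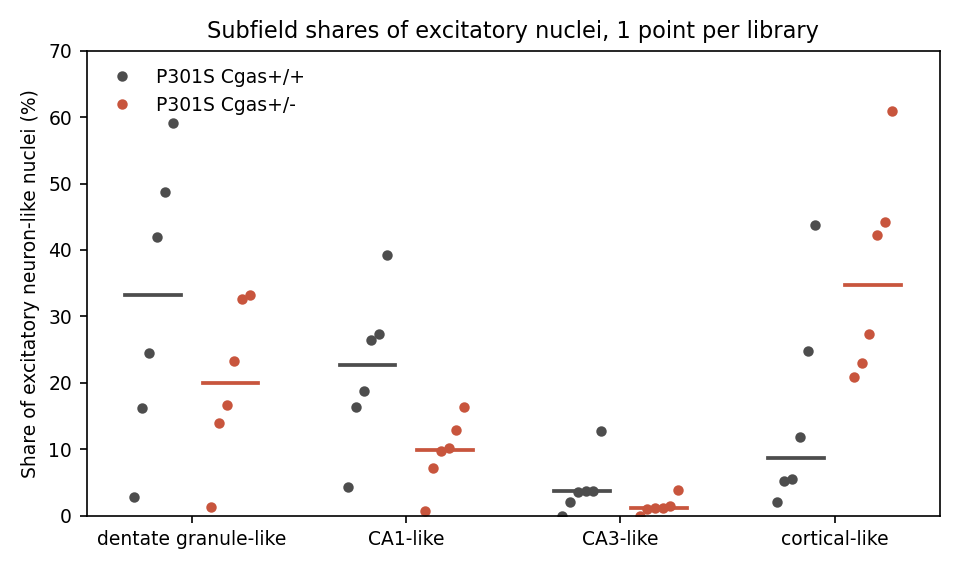
Share of excitatory nuclei (%, vertical axis) in each subfield for the 6 P301S Cgas+/+ libraries (grey) and the 6 P301S Cgas+/- libraries (red), with 1 point per library and a bar at the group median. Median CA1 shares were 22.6% and 9.90%, and median cortical shares 8.71% and 34.8%, with overlapping ranges.

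Dentate granule nuclei, the principal neurons of the dentate gyrus, made up 2.87, 33.2 and 59.2% of excitatory nuclei in P301S Cgas+/+ libraries and 1.28, 20.01 and 33.3% in P301S Cgas+/- libraries. CA3 nuclei made up 0, 3.64 and 12.7% against 0, 1.15 and 3.85%. The spread within each group covered the difference for both subfields, and the dentate difference of −12.1 points was −2.90 without the 2 libraries that stood apart. Excitatory nuclei as a whole were 16.4, 33.6 and 39.9% of kept nuclei in P301S Cgas+/+ libraries and 31.7, 39.0 and 52.9% in P301S Cgas+/- libraries (exact permutation p = 0.0584, adjusted p = 0.370). Among glia, microglia were 3.62, 6.53 and 9.60% against 2.55, 5.68 and 7.86% of nuclei, and oligodendrocyte medians were 24.1% and 22.7%. Oligodendrocyte progenitors had medians of 3.48% and 2.39%, a difference in means of −0.686 points, which was −1.01 points without the 2 libraries that stood apart (exact permutation p = 0.175 and 0.0556).

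The cortical difference had the same direction in both sexes. In females the mean cortical share was 4.30% in P301S Cgas+/+ and 30.1% in P301S Cgas+/- libraries, and in males it was 26.8% and 42.7%. Mean CA1 shares were 27.6% and 13.2% in females and 16.5% and 5.86% in males. The header of the count files names Cell Ranger 3.0.2 in 2 male libraries of each group and 3.1.0 in the others. Mean cortical shares were 27.8% and 42.0% among the former and 9.41% and 33.7% among the latter. Summed UMIs followed the nuclei, with group medians in CA1 of 634.5 nuclei and 6743933 UMIs in P301S Cgas+/+ and 285.5 nuclei and 3463145 UMIs in P301S Cgas+/- libraries. The genotype and the tissue taken at dissection cannot be told apart by these shares.

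Tests across all genes by edgeR called 1 gene in 10 classes. This quasi-likelihood test called 0 genes (0%) in microglia, astrocytes, oligodendrocytes, oligodendrocyte progenitors, pooled excitatory neurons, hippocampal excitatory neurons, dentate granule neurons, CA1 neurons and cortical excitatory neurons at an adjusted p under 0.05. It called 1 of 12688 genes (0.00788%) in inhibitory neurons. At an unadjusted p under 0.05 it listed 194 genes in microglia (2.14%), 359 in astrocytes (2.76%), 385 in oligodendrocytes (3.11%) and 322 in oligodendrocyte progenitors (3.72%). Among neurons it listed 767 genes in inhibitory neurons (6.05%), 2072 in pooled excitatory neurons (12.3%), 521 in hippocampal excitatory neurons (3.54%), 591 in dentate granule neurons (4.63%), 291 in CA1 neurons (2.39%) and 936 in cortical excitatory neurons (6.83%). Leaving out P301S Cgas+/+ 1 alone gave 23 genes past the adjustment in pooled excitatory neurons. The pooled excitatory class had the largest share of genes with a small p among the 10. The Wald test of DESeq2 called 150 genes in pooled excitatory neurons (0.887%), 5 in inhibitory neurons (0.0394%), 8 in cortical excitatory neurons (0.0583%) and 1 in hippocampal excitatory neurons (0.0068%), and 0 in the other 6 classes.

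In pooled excitatory neurons the genes with a small p divided by region. Of 1092 genes with an unadjusted p under 0.05 and a higher level in P301S Cgas+/- mice, 1061 (97.2%) had a higher mean CPM in cortical than in hippocampal nuclei of the same 12 libraries. Of 980 such genes with a lower level, 90 (9.18%) did. Over all 16913 genes tested the figure was 57.7%. Of the genes that DESeq2 called, 94 of 94 with a higher level and 1 of 56 with a lower level (1.79%) had more CPM in cortical nuclei. Within hippocampal nuclei alone, 62 of 878 of the higher genes and 108 of 913 of the lower genes kept their direction with a p under 0.05 (7.06% and 11.8%). Of all genes tested in both, 426 of 14702 (2.9%) had such a p there with the pooled direction. Their median log2 fold changes there were 0.09 and −0.22, against 0.57 and −0.59 in the pooled class. Within cortical nuclei alone, 186 of 975 and 211 of 737 did (19.1% and 28.6%), beside 832 of 13713 of all genes (6.07%), with medians of 0.24 and −0.29. Of the genes that DESeq2 called, 4 of 70 higher ones (5.71%) and 23 of 55 lower ones (41.8%) kept their direction with a p under 0.05 in hippocampal nuclei. In cortical nuclei 47 of 90 and 23 of 42 did (52.2% and 54.8%). The nuclei of each region are also part of the pooled class, so these counts are not independent of it.

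Region markers in the pooled class showed the same division. Of 15 cortical markers, 12 had positive log2 fold changes, 6 higher and 1 lower at a p under 0.05, beside 12.3% of all genes in either direction. Their median was 0.28 beside 0.01 over all genes, and it was 0.15 without P301S Cgas+/+ 3 and 0.47 without P301S Cgas+/+ 1. Of 10 CA1 markers, 9 had negative values, 6 lower and 1 higher at that p, with a median of −0.70. None of them passed the edgeR adjustment, while DESeq2 called 2 cortical markers, the nuclear receptor Rorb of layer IV neurons (log2 fold change of 1.97, adjusted p = 0.0310) and the Wnt pathway ligand Rspo1 (2.89, adjusted p = 0.0473). Galntl6, a glycosyltransferase-like gene high in CA1, had a log2 fold change of −0.71 ± 0.31 in the pooled class and 0.06 ± 0.18 within CA1 nuclei. Man1a, a mannosidase of glycan trimming, had −0.96 ± 0.32 and −0.12 ± 0.17. Both genes are among the markers by which CA1 subclusters were named, so their values within CA1 nuclei are not independent of that naming. Glutamate receptor genes followed. Gria1, an AMPA receptor subunit, had −0.67 ± 0.27 in the pooled class, 0.04 ± 0.12 in CA1 nuclei and 0.01 ± 0.11 in dentate granule nuclei. Grin2a, an NMDA receptor subunit, had −0.42 ± 0.20, 0.06 ± 0.12 and 0.00 ± 0.11. Of 17 AMPA and NMDA receptor genes, 1 was higher and 6 were lower at a p under 0.05 in the pooled class, beside the same 12.3%, with a median of −0.18. At that p there were 0 of 17 in hippocampal nuclei, beside 3.54% of all genes, and 0 of 16 in CA1 nuclei, beside 2.39%.

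The 5 genes of smallest p in pooled excitatory neurons did not pass the edgeR adjustment. Tmem196, which encodes a membrane protein, stood at 7.29, 11.5 and 18.7 CPM in P301S Cgas+/+ mice and 16.9, 24.4 and 44.8 CPM in P301S Cgas+/- mice, so that the groups overlapped only between 16.9 and 18.7 CPM. Its log2 fold change was 1.14 ± 0.19 (SE), with an adjusted p of 0.0988 by edgeR and 0.000306 by DESeq2. Klhl40, Mtus1, Nemp2 and Gm11549 had log2 fold changes of 0.84, 1.12, 0.54 and 2.10, with adjusted p-values of 0.146 to 0.147 by edgeR and of 0.00108 each by DESeq2, which called all 5.

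Mef2c, an activity-dependent transcription factor of neurons and microglia that the study follows, showed how much the pooled class differed from its named parts. In pooled excitatory neurons it stood at 193, 290.4 and 544.5 CPM in P301S Cgas+/+ mice and 339, 508 and 949 CPM in P301S Cgas+/- mice. The upper part of the first group overlapped the lower part of the second. The difference was 0.93 ± 0.31 on the log2(CPM + 1) scale (exact permutation p = 0.0238, adjusted p = 0.214, n = 6 per group), and edgeR gave 0.88 ± 0.24 (adjusted p = 0.193). DESeq2 gave 0.87 and just passed it (adjusted p = 0.0499). In dentate granule nuclei Mef2c stood at 322, 353.5 and 443 CPM against 349, 370 and 418 CPM, with an edgeR log2 fold change of −0.01 ± 0.09. CA1 nuclei held 31.2, 33.6 and 51.2 CPM against 26.3, 40.4 and 81.6 CPM, or 0.27 ± 0.18. In cortical nuclei it stood at 113.5, 441 and 844 CPM against 134, 672 and 1047 CPM, or 0.48 ± 0.52. Neither subfield nor cortex separated the groups. Mean cortical levels were 616 CPM in P301S Cgas+/+ and 493 CPM in P301S Cgas+/- females, and 311 and 835 CPM in males. Hippocampal excitatory nuclei together had 0.30 ± 0.21, which was 0.45 without the 2 libraries that stood apart (unadjusted p = 0.0506 by edgeR, against 0.165 with them). CA3 nuclei, in the 5 libraries of each group that held any, differed by −0.05 ± 0.44 (exact permutation p = 0.857). Inhibitory neurons, where Mef2c was high, had 0.07 ± 0.09. Outside neurons, Mef2c had 0.66 ± 0.28 in oligodendrocytes (unadjusted p = 0.0286 by edgeR), or 0.38 without the 2 libraries that stood apart (unadjusted p = 0.215). It had 0.23 ± 0.13 in astrocytes, 0.29 ± 0.18 in oligodendrocyte progenitors and 0.01 ± 0.11 in microglia, and passed in none of these classes. The mean level was 563.6 CPM in cortical and 195.5 CPM in hippocampal excitatory nuclei over the 12 libraries. Of 43946 Mef2c UMIs in pooled excitatory nuclei of P301S Cgas+/+ mice, hippocampal nuclei held 16010 and cortical nuclei 8389. In P301S Cgas+/- mice the figures were 95143, 12460 and 41305. The rest lay in subclusters without a name, whose Mef2c level was not examined.

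**Figure D2:**
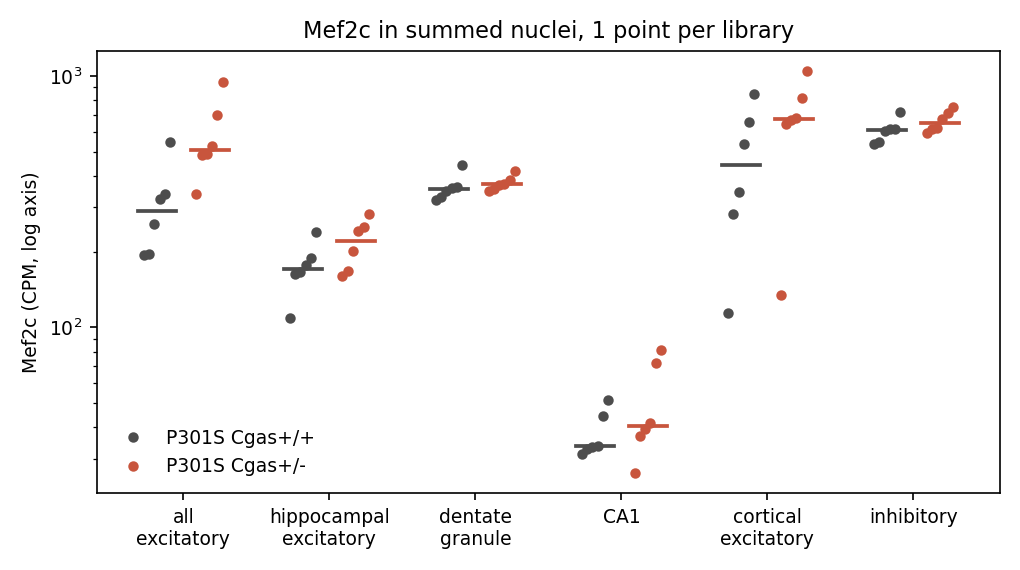
Mef2c level (CPM, log axis) per library in pooled excitatory neurons, their named subdivisions and inhibitory neurons, for P301S Cgas+/+ (grey) and P301S Cgas+/- (red), with a bar at each group's median. Medians were 290.4 and 508 CPM in the pooled class and 353.5 and 370 CPM in dentate granule nuclei.

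A list of 7 genes that the study names in excitatory neurons came from its comparison of P301S Cgas-/- with the same P301S Cgas+/+ mice, so the list shares the control libraries used here and is not independent evidence of its direction. All 7 had positive log2 fold changes in the pooled class, with a median of 0.68, and 6 had an unadjusted p under 0.05, beside 12.3% of all genes. None passed the edgeR adjustment, and DESeq2 called only Mef2c. Among its members are Mef2c, the chromatin organiser Satb1, Dpp10 (an auxiliary subunit of potassium channels), Nrg1 (neuregulin 1, a ligand of ErbB receptors) and the protocadherins Pcdh7 and Pcdh15. Nrg1 stood at 1242, 1513 and 2638 CPM in P301S Cgas+/+ mice and 1939, 2667 and 3491 CPM in P301S Cgas+/- mice in the pooled class, a log2 fold change of 0.61 ± 0.24. In cortical nuclei its value was −0.08 ± 0.26, in dentate granule nuclei 0.22 ± 0.13 and in CA1 nuclei −0.37 ± 0.42. Dpp10 had 1.01 ± 0.38 in the pooled class, −0.14 ± 0.15 in cortical and −0.59 ± 0.37 in dentate granule nuclei. Pcdh7 had 0.69 ± 0.24, 0.30 ± 0.38 and 0.59 ± 0.38. Without the 2 libraries that stood apart Pcdh7 had 0.41 in the pooled class, and Dpp10 had −0.89 in dentate granule nuclei. The median over the 7 genes was −0.25 in hippocampal, 0.17 in dentate granule, −0.37 in CA1 and −0.01 in cortical nuclei. Single libraries moved these medians. The hippocampal one was −0.07 without P301S Cgas+/+ 5, the CA1 one −0.14 without P301S Cgas+/+ 6 and the dentate granule one 0.10 without P301S Cgas+/+ 2, while the cortical one ran from −0.06 to 0.12 over the 12 omissions. Without both libraries that stood apart the medians were −0.43, 0.08, −0.45 and 0.03 in the same order.

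**Figure D3:**
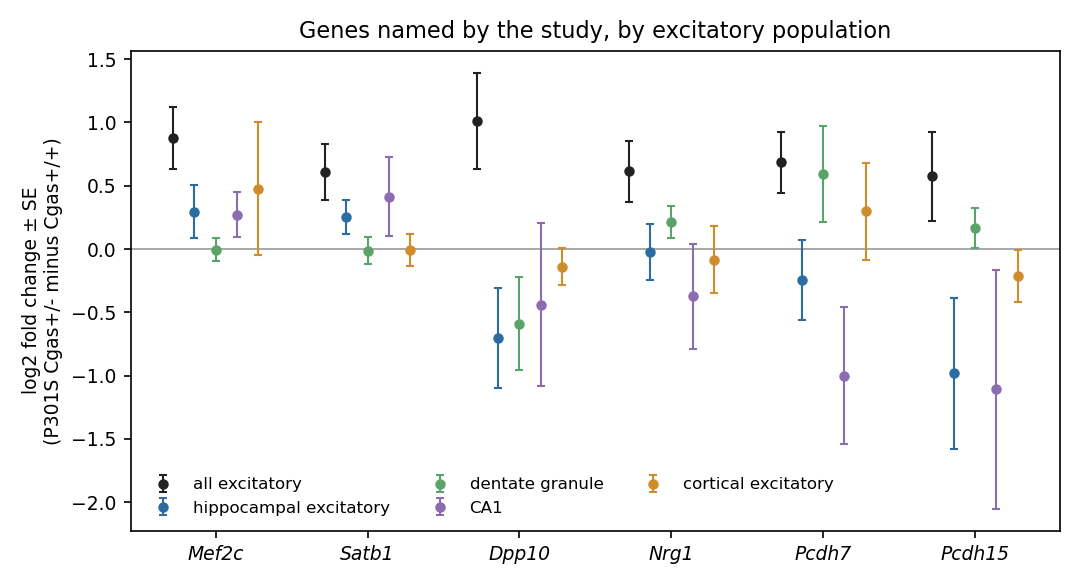
log2 fold change of P301S Cgas+/- against P301S Cgas+/+ (points, with SE as bars) for 6 of the genes the study names in excitatory neurons, in pooled excitatory neurons (black) and in 4 populations within them. All 6 black points lie above 0, while the medians of the whole list in the other populations run from −0.37 to 0.17.

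Within CA1 and dentate granule nuclei no gene passed the edgeR or the DESeq2 test. In CA1 nuclei the 5 smallest p-values belonged to Creb5, a bZIP transcription factor (−1.91 ± 0.50), the NADPH oxidase Nox4 (−1.99 ± 0.57), Gm19325, the DNA repair protein Rad50 (−0.49 ± 0.14) and Trappc6a of vesicle tethering (0.93 ± 0.27). Rad50 stood at 25.5, 28.7 and 39.8 CPM in P301S Cgas+/+ mice and 14.2, 22.2 and 24.96 CPM in P301S Cgas+/- mice, without overlap, at an adjusted p of 1 by edgeR. In CA1 nuclei 0.0492% of genes had every P301S Cgas+/- library lower, and 0.0492% every one higher. CA1 nuclei numbered only 21 in the smallest P301S Cgas+/- library. Among 23 activity-regulated genes tested there, Nr4a1, an immediate early orphan receptor, stood at 40.0, 50.4 and 55.2 CPM against 55.5, 68.9 and 81.6 CPM, without overlap, and had a log2 fold change of 0.43 ± 0.25 (not passing by edgeR). The list median was −0.04, and only Fosb, an immediate early factor near the detection limit, had a p under 0.05 (−1.95 ± 0.81), beside 2.39% of all genes. In dentate granule nuclei the long noncoding transcript A230006K03Rik stood at 90.2, 130.5 and 146 CPM against 62.7, 78.8 and 91.6 CPM, which overlapped in the lowest P301S Cgas+/+ library (−0.65 ± 0.16, adjusted p = 1 by edgeR). In hippocampal excitatory nuclei Sgpp1, a phosphatase of sphingosine 1-phosphate, had 0.57 ± 0.13 and was the 1 gene that DESeq2 called there (0.54, adjusted p = 0.0455, against 1 by edgeR), and Foxp2, itself a cortical marker here, 1.07 ± 0.27.

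Inhibitory neurons held the 1 gene that passed by edgeR. Cntn4 encodes contactin 4, a cell adhesion molecule of axons, and lies on chromosome 6 (105677660 to 106699310, plus strand, GRCm38). It stood at 615, 811 and 936 CPM in P301S Cgas+/+ inhibitory neurons and 1052, 1403 and 1507 CPM in P301S Cgas+/- inhibitory neurons, so that every P301S Cgas+/- library lay above every P301S Cgas+/+ library. Among excitatory nuclei of the 12 libraries Cntn4 had a mean of 1203 CPM in cortical and 368.9 CPM in hippocampal nuclei, and Cntn6, described next, 135 and 8.54 CPM. The part of the cortical share, which was higher by 20.9 points in P301S Cgas+/- libraries, in either gene's difference was not tested. The log2 fold change of Cntn4 was 0.72 ± 0.12 (SE, n = 6 per group), with an adjusted p of 0.0253 by edgeR and 4.28e-05 by DESeq2. The call was lost without P301S Cgas+/+ 3, 4 or 5 and without P301S Cgas+/- 1, 4, 5 or 6, with adjusted p-values of 0.00415 to 0.161 over the 12 omissions and log2 fold changes of 0.65 to 0.79. Over all edgeR alternatives the adjusted p ran from 0.000126 to 0.21. It was also lost without both libraries that stood apart (0.65, adjusted p = 0.21) and in nuclei with 1000 to 3000 genes (0.63, adjusted p = 0.0901).

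Cntn6, contactin 6, is a close relative of Cntn4 and lies on the same chromosome (104492790 to 104863406, plus strand). It stood at 156, 187 and 196 CPM against 201, 268 and 307 CPM, again without overlap, with a log2 fold change of 0.48 ± 0.09, which DESeq2 called (adjusted p = 0.00459) and edgeR did not (adjusted p = 0.0755). Itgad, integrin alpha D, stood at 2.08, 3.60 and 5 CPM against 0.368, 1.32 and 1.72 CPM (−1.69 ± 0.32). Rab38, a small GTPase of lysosome-related organelles, stood at 4.15, 5.97 and 9.83 CPM against 0.493, 1.59 and 3.09 CPM (−2.06 ± 0.40). Neither gene's groups overlapped, and both had an adjusted p of 0.0755 by edgeR. DESeq2 called both Itgad (adjusted p = 0.0215) and Rab38 (adjusted p = 0.00416). Among all genes tested in inhibitory neurons, 15 (0.118%) had every P301S Cgas+/- library higher and 8 (0.0631%) every one lower. Pdyn, which encodes prodynorphin, a precursor of opioid peptides, was at 0, 0.625 and 4.74 CPM against 4.48, 8.33 and 13.4 CPM (2.60 ± 0.55, adjusted p = 0.246 by edgeR and 0.0027 by DESeq2). These last 3 genes are of low level, so few molecules stand behind each value.

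**Figure D4:**
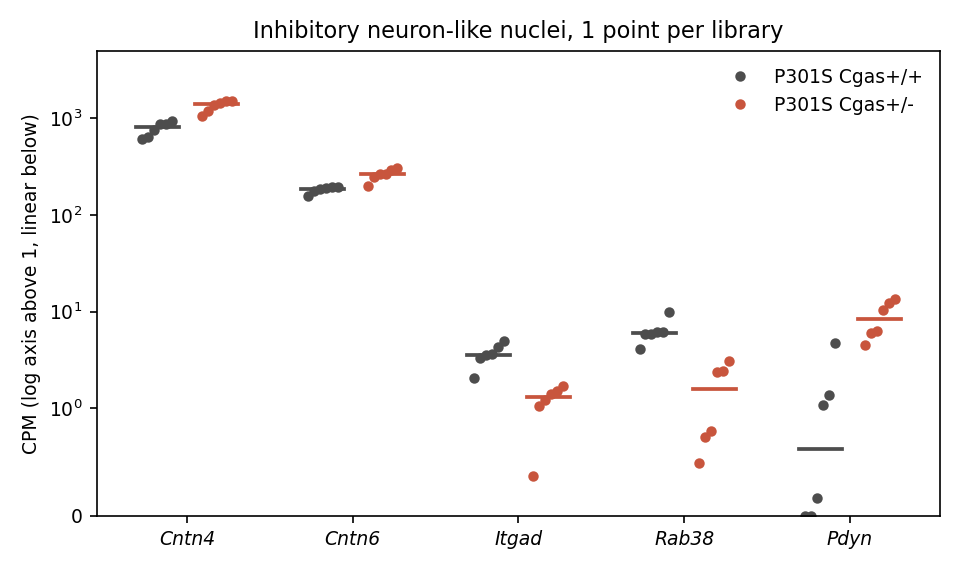
CPM per library in inhibitory neurons (log axis above 1, linear below) for the 5 genes of smallest p, in P301S Cgas+/+ (grey) and P301S Cgas+/- (red), with a bar at each group's median. Cntn4 medians were 811 and 1403 CPM, and the groups of Cntn4, Cntn6, Itgad and Rab38 do not overlap.

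The inhibitory class joined 4 clusters, and the level of Cntn4 in each was examined after the call was seen, as a description. In the cluster rich in Adarb2 and Vip, Cntn4 stood at 625, 828 and 994 CPM in P301S Cgas+/+ libraries and 1049, 1411 and 2130 CPM in P301S Cgas+/- libraries. In the cluster rich in Sst it stood at 526, 936 and 1071 CPM in the 5 P301S Cgas+/+ libraries with at least 20 such nuclei and 1248, 1611 and 2288 CPM in the 6 P301S Cgas+/- libraries. Neither cluster showed overlap. The cluster in which Pvalb was highest held 702, 763 and 949 CPM against 858, 1178 and 1324 CPM. In the cluster richest in Lamp5 the order was the other way, at 335, 512 and 673 CPM against 222, 325 and 585 CPM in 5 P301S Cgas+/- libraries. That cluster made up 5.94, 11.5 and 17.2% of inhibitory nuclei in P301S Cgas+/+ libraries and 2.77, 7.85 and 8.62% in P301S Cgas+/- libraries, and the ranges of all 4 clusters overlapped between the groups. Outside the class, the log2 fold change of Cntn4 was 0.55 in pooled excitatory, 0.26 in cortical, −0.03 in hippocampal excitatory, 0.28 in CA1 and −0.31 in dentate granule neurons. It was 0.57 in microglia, 0.19 in astrocytes, −0.06 in oligodendrocytes and 0.02 in oligodendrocyte progenitors, where the gene was also high. Without the 2 libraries that stood apart it was 0.47 in cortical neurons (unadjusted p = 0.0253 by edgeR, against 0.176 with them), 0.42 in CA1 neurons and 0.28 in microglia.

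Genes of axon guidance with a small p in inhibitory neurons all had the lower level in P301S Cgas+/- mice. Of 34 tested, 9 had an unadjusted p under 0.05 with a lower level and 0 with a higher one, beside 6.05% of all genes in either direction, and the list median was −0.05, or 0.02 without the 2 libraries that stood apart. Unc5d, a netrin receptor, stood at 940, 1567 and 2434 CPM against 883, 954 and 1463 CPM (−0.75 ± 0.25). Epha6, an ephrin receptor, had −0.30 ± 0.12, whereas the Slit receptors Robo1 and Robo2 had 0.00 ± 0.10 and 0.01 ± 0.10. The neuropilins Nrp1 and Nrp2, semaphorin co-receptors singled out after their values were seen, had −1.03 ± 0.29 and −0.88 ± 0.22. None of the 34 passed the adjustment. Among 27 synaptic adhesion genes, Cntn4 passed, 4 others had a lower level at that p, and the median was −0.09. Among 27 potassium channel genes, Kcnip4, a subunit that modulates A-type channels, stood at 2357, 3090 and 3683 CPM against 3515, 4410 and 5908 CPM (0.50 ± 0.12). Neither tool called it (adjusted p = 0.342 by edgeR and 0.0724 by DESeq2). Summed markers of striatal projection neurons ranged over 1093 to 1522 CPM in P301S Cgas+/+ and 1001 to 2608 CPM in P301S Cgas+/- inhibitory neurons. None of the 9 markers was at 0 in all libraries. Most of the sum was Pde10a, at 1199 to 1722 CPM in the 4 inhibitory clusters over the 12 libraries. Drd1 stood there at 0.924 to 7.39 CPM and Drd2 at 2.14 to 13.4 CPM, so the sum does not by itself mark striatal tissue. The part of such tissue in these values was not tested.

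Genes that the study names in inhibitory neurons, from the same comparison of P301S Cgas-/- with P301S Cgas+/+ mice and so not independent evidence, were mixed in direction. The lists of such genes and of MEF2C targets each join genes that the study names as higher and as lower, so a median over one joins both. Of 9 tested, 4 had positive and 5 negative log2 fold changes, 1 was higher and 1 lower at a p under 0.05, beside 6.05% of all genes, and the median was −0.01 beside 0.01 over all genes. Cacnb2, an auxiliary subunit of calcium channels, stood at 444.7, 541 and 749 CPM against 445, 473 and 547 CPM (−0.26 ± 0.11). Cacna1e, a pore subunit of R-type calcium channels, had 0.25 ± 0.12. Without the 2 libraries that stood apart these 2 values were −0.17 and 0.14. Of 13 MEF2C targets that the study names in inhibitory neurons, 4 were higher and 2 lower at that p, beside the same 6.05%, with a median of 0.15, or 0.07 without P301S Cgas+/+ 3. Rasgef1b, a guanine nucleotide exchange factor, stood at 22.5, 34.9 and 42.6 CPM against 34.1, 54.9 and 92.1 CPM (0.72 ± 0.24), and Epha7, an ephrin receptor, had −0.36 ± 0.14. Of 17 targets named in excitatory neurons, 0 were higher and 3 lower at that p in dentate granule nuclei, beside 4.63% of all genes, and 0 in CA1 nuclei were either, beside 2.39%. The MEF2 family and the class IIa histone deacetylases that repress it held 8 genes tested in inhibitory neurons, 0 at a p under 0.05, with a median of −0.04. Mef2d had −0.11 ± 0.09 and Hdac9 −0.12 ± 0.12. None of these genes passed the adjustment.

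Glia showed no gene that passed. In microglia the 5 smallest p-values belonged to Erh, Ccdc28a, Fbxl7, Rnf182 and Sptan1. Erh, a conserved factor of RNA processing, stood at 11.6, 14.2 and 17.2 CPM against 19.1, 25.5 and 34.8 CPM, without overlap (0.81 ± 0.20, adjusted p = 1 by edgeR), and 6 of the 9077 genes (0.0661%) had no overlap in that direction. Homeostatic genes hardly differed. Csf1r, the receptor on which microglia depend, had a log2 fold change of 0.00 ± 0.14 and Mef2c 0.01 ± 0.11, and the median over 16 such genes was −0.00. Disease-associated genes varied widely within each group. Apoe, the main lipid carrier of the brain, ranged over 92.9 to 2966 CPM in P301S Cgas+/+ and 107.5 to 3567 CPM in P301S Cgas+/- microglia. The median over 25 such genes was −0.05, and 0.39 without the 2 libraries that stood apart.

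Interferon-stimulated genes, the downstream readout of cGAS, had mostly negative log2 fold changes in P301S Cgas+/- glia, and no member passed. In microglia 48 of the 50 tested genes had negative log2 fold changes, with a median of −0.40 beside −0.01 over all genes, and 2 had an unadjusted p under 0.05, beside 2.14%. Trim30a, an interferon-induced TRIM protein, stood at 205, 377.5 and 535 CPM against 133, 253 and 555 CPM (−0.45 ± 0.30). Rnf213, an inducible ubiquitin ligase, had −0.49 ± 0.33 and Apobec3, a cytidine deaminase that restricts retroviruses, −0.15 ± 0.23. The summed level of the list was 1703, 4304 and 6589 CPM against 1726, 3156 and 5464 CPM, which overlapped almost entirely.

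The same list had a median of −0.54 in astrocytes (52 of 53 negative, 2 at a p under 0.05, beside 2.76%), −0.56 in oligodendrocytes (26 of 26 negative, 2 at that p, beside 3.11%) and −0.26 in oligodendrocyte progenitors (22 of 25 negative, 0 at that p, beside 3.72%). The 11 microglial markers summed to 82.3 to 101.5 CPM in P301S Cgas+/+ oligodendrocyte progenitors and to 46.9 to 80.3 CPM in P301S Cgas+/- ones, lower in every library and with 0 of 11 at 0 in all, and their part in this median was not tested. Medians over all genes were 0.01 in astrocytes and oligodendrocytes and 0.00 in oligodendrocyte progenitors. The summed list of 70 interferon-stimulated genes stood at 660, 1323 and 2568 CPM against 507, 1183 and 1651 CPM in astrocytes, which overlapped. In oligodendrocytes it stood at 230, 456 and 1111 CPM against 183, 396 and 446.5 CPM, which overlapped too. In astrocytes Herc6, a ligase of the ubiquitin-like ISG15, stood at 67.5, 91.7 and 198 CPM against 44.5, 83.2 and 99.5 CPM (−0.59 ± 0.26). The medians of the list in glia lay closest to 0 when P301S Cgas+/+ 5 was left out. Without it they were −0.25 in microglia, −0.15 in astrocytes, −0.20 in oligodendrocytes and 0.06 in oligodendrocyte progenitors. They lay farthest from 0 at −0.57, −0.75 and −0.75 in the first 3 classes without P301S Cgas+/+ 2 and at −0.54 in oligodendrocyte progenitors without P301S Cgas+/- 2. In neurons the median was −0.04 in inhibitory (18 genes), −0.11 in cortical excitatory (23), −0.37 in hippocampal excitatory (39), −0.33 in dentate granule (21) and −0.17 in CA1 neurons (20). Without P301S Cgas+/+ 5 these values were 0.03, 0.08, 0.08, −0.12 and 0.33, and differences between the classes were not tested. Genes of MHC class II and antigen presentation had a median of −0.71 in microglia, with 9 of 9 negative and 0 at a p under 0.05, and −0.13 without the 2 libraries that stood apart. Leaving out P301S Cgas+/+ 3 alone gave −0.12, and leaving out P301S Cgas+/- 4 gave −1.62. Cd74, the invariant chain, ranged over 8.46 to 814 CPM in P301S Cgas+/+ and 10.8 to 500.4 CPM in P301S Cgas+/- microglia.

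Reactive genes of astrocytes did not separate the groups. Gfap, their intermediate filament protein, stood at 237.5, 464 and 1220 CPM against 97.2, 436 and 1137 CPM (−0.17 ± 0.53), and C4b, a complement component, had 0.06 ± 0.37. Without the 2 libraries that stood apart they had 0.44 and 0.36. Of 13 reactive genes, 12 had negative values and 0 had a p under 0.05, beside 2.76% of all genes. Their median was −0.28 beside 0.01 over all genes, and 0.14 without the 2 libraries that stood apart. It was −0.00 without P301S Cgas+/+ 3 and −0.81 without P301S Cgas+/- 4. Chst9, a sulfotransferase, had the smallest p in astrocytes, at 21.1, 23.1 and 26.5 CPM against 5.75, 14.03 and 21.6 CPM (−0.84 ± 0.20, adjusted p = 1 by edgeR). Chst9 was higher in hippocampal excitatory nuclei, at a mean of 231 CPM, than in cortical ones, at 72.7 CPM, or in astrocytes. Myelin genes in oligodendrocytes were level between the groups. Mbp had −0.03 ± 0.11 and Mobp 0.06 ± 0.15, and the median over 16 genes was −0.02. In the same class Ipcef1, which binds cytohesin exchange factors, had 1.37 ± 0.30 (adjusted p = 0.999 by edgeR), or 0.99 without the 2 libraries that stood apart. Its level in oligodendrocytes, 2.18 to 6.14 CPM against 5.57 to 17.8 CPM, was far below its means of 135.3 CPM in cortical and 26.8 CPM in hippocampal excitatory nuclei. The part of neuronal transcripts in these 2 differences was not tested. In oligodendrocyte progenitors Cers2, a ceramide synthase that makes very long chain sphingolipids, stood at 6.59, 11.2 and 17.4 CPM against 17.7, 19.2 and 30.8 CPM, without overlap (0.93 ± 0.25, adjusted p = 0.999 by edgeR), beside 0.0924% of genes in that direction. Transcripts of myelin were also counted in neurons, which do not make it, with a median log2 fold change of −0.42 in pooled excitatory and −0.37 in inhibitory neurons (−0.32 and −0.23 without the 2 libraries that stood apart). The summed myelin list stood at 447.9 to 579.9 CPM in P301S Cgas+/+ excitatory neurons, which lay within the 442.5 to 625.2 CPM of P301S Cgas+/- excitatory neurons. The summed oligodendrocyte markers ranged over 176 to 313 CPM in P301S Cgas+/+ and 118 to 217 CPM in P301S Cgas+/- pooled excitatory neurons. In the same order they ranged over 184 to 340 and 137 to 308 CPM in hippocampal nuclei. In dentate granule nuclei they ranged over 349 to 436 and 323 to 420 CPM. The part of the subfield shares in the pooled values, and of these markers in other results, was not tested.

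The chromosome around Cgas was examined because the altered allele travels with its neighbours in a cross. Cgas lies on chromosome 9 (78430526 to 78443237, minus strand, GRCm38), and 105 genes of the files lie within 5 Mb. Between 27 (microglia) and 66 (pooled excitatory neurons) of them were tested per class, and 0 passed the edgeR adjustment in any class. DESeq2 called Elovl5 and Htr1b in cortical excitatory neurons and the unconventional myosin Myo5c in pooled excitatory neurons (1.18, adjusted p = 0.0473). Medians lay between −0.03 and 0.06. In cortical excitatory neurons 10 of 48 had an unadjusted p under 0.05, 4 higher and 6 lower, beside 6.83% of all genes, and in hippocampal excitatory neurons 0 of 51, beside 3.54%.

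Of the 5 genes with the smallest p among the 13714 tested in cortical excitatory neurons, 2 lie in this window. Elovl5, an enzyme that elongates polyunsaturated fatty acids, lies 0.446 Mb from Cgas at its nearer end (77917364 to 77984519, plus strand). It stood at 27.6, 31.3 and 35.2 CPM in P301S Cgas+/+ and 18.9, 19.9 and 24.3 CPM in P301S Cgas+/- cortical neurons, so that every P301S Cgas+/- library lay below every P301S Cgas+/+ library, beside 0.051% of genes in that direction. Its log2 fold change was −0.64 ± 0.14 (SE, n = 6 per group), with an adjusted p of 0.508 by edgeR and 0.0408 by DESeq2. Over the edgeR alternatives the adjusted p ran from 0.206 to 0.941. The gene had 0.04 ± 0.14 in hippocampal excitatory, 0.06 ± 0.17 in CA1, −0.02 ± 0.14 in dentate granule and −0.21 ± 0.11 in inhibitory neurons. In glia it had 0.49 ± 0.23 in microglia, 0.03 ± 0.10 in astrocytes and 0.08 ± 0.10 in oligodendrocytes.

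Htr1b, a serotonin receptor, lies 3.19 Mb from Cgas (81628291 to 81633828, minus strand). It stood at 2.06, 5.13 and 8.46 CPM against 1.13, 1.85 and 3.09 CPM in cortical neurons, which overlapped (−1.50 ± 0.31, adjusted p = 0.508 by edgeR and 0.0221 by DESeq2), and had 0.13 ± 0.35 in hippocampal excitatory neurons. Mto1, a mitochondrial tRNA modification enzyme whose gene begins 0.00497 Mb from Cgas, stood at 21.9, 23.2 and 25.6 CPM against 26.3, 27.1 and 36.2 CPM in astrocytes, without overlap (0.28 ± 0.11, adjusted p = 1 by edgeR), beside 0.0462% of genes there in that direction. Across classes its log2 fold change ran from −0.26 in oligodendrocyte progenitors to 0.28. The other 3 cortical genes of smallest p were Cdk17, a cyclin-dependent kinase (0.44 ± 0.10), Fndc1 (−2.37 ± 0.52) and the zinc finger factor Ovol2 (0.80 ± 0.18). DESeq2 called all 5, and Htr2c, Igsf11 and Pgm5 besides. P301S Cgas+/+ libraries held as few as 55 cortical nuclei and P301S Cgas+/- libraries at least 493. The mix of cortical subclusters also differed. The subcluster led by Rorb held 205 P301S Cgas+/+ and 1595 P301S Cgas+/- nuclei, and that led by Foxp2 held 184 and 1278. In the same order, that led by Cobll1 held 639 and 676, and that led by Sntb1 held 548 and 706. The part of this mix in the cortical values, those of Elovl5 and Htr1b included, was not tested.

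**Figure D5:**
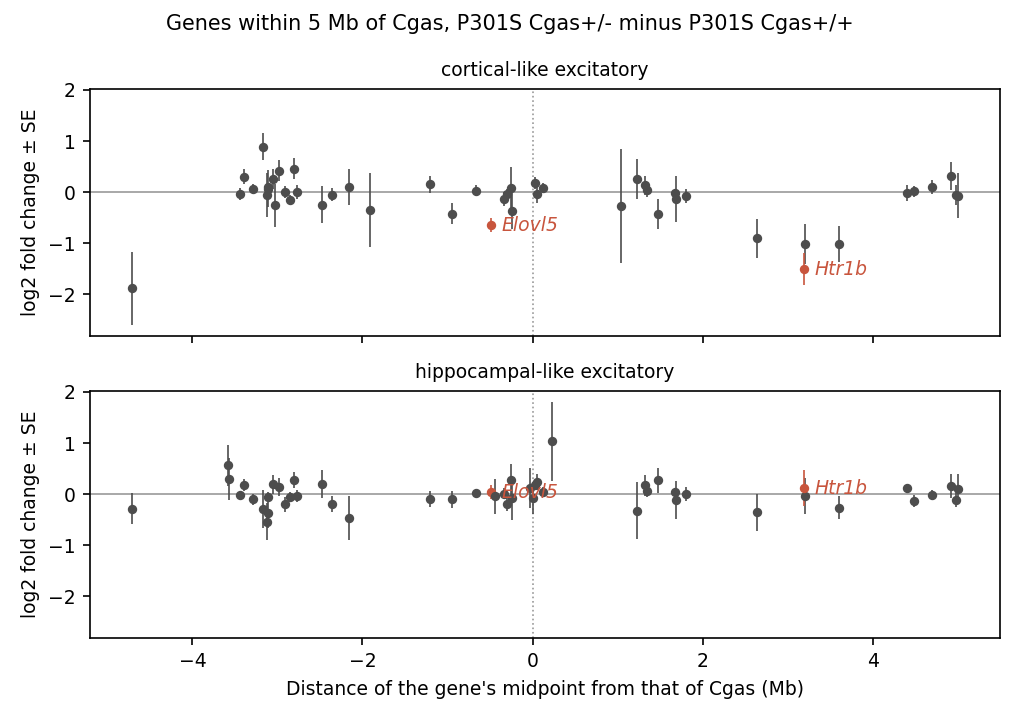
log2 fold change of P301S Cgas+/- against P301S Cgas+/+ (points, SE as bars) for genes within 5 Mb of Cgas, by distance from Cgas in Mb, in cortical (top) and hippocampal (bottom) excitatory neurons. Elovl5 (−0.64) and Htr1b (−1.50) are in red in the top panel and lie at 0.04 and 0.13 in the bottom panel.

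The effect of the lost copy was compared between the sexes in the 12 libraries, as the effect in males minus that in females. The edgeR interaction test called 19 of 15916 genes in pooled excitatory neurons (0.119%), 2 of 11843 in oligodendrocytes (0.0169%) and 1 of 11587 in inhibitory neurons (0.00863%), and 0 in the other 7 classes, where 249 to 915 genes had an unadjusted p under 0.05. DESeq2 was not run for the interaction. All 19 excitatory genes had a negative interaction, and all 19 had a higher mean CPM in cortical than in hippocampal nuclei. Ptprt, a receptor tyrosine phosphatase, had an interaction of −2.09 ± 0.26 on the log2 scale (adjusted p = 0.0182 by edgeR). Its mean was 124.7 CPM in P301S Cgas+/+ and 490.4 CPM in P301S Cgas+/- females, and 562 and 528 CPM in males. Meis2, a homeobox factor, had means of 114.5 and 342 CPM in females and 395 and 298 CPM in males. Ldb2, a LIM domain partner, had 279.8 and 609 CPM in females and 665 and 538 CPM in males. Low values stood in P301S Cgas+/+ females, the 3 mice whose mean cortical share was 4.30%. Cell Ranger 3.0.2 stood in the headers of 2 of the 3 males and 0 of the 3 females of each group, the interaction fit had no term for it, and its part was not tested. Rxfp1, a relaxin receptor, was called in pooled excitatory neurons (−4.36 ± 0.62) and in oligodendrocytes (−3.90 ± 0.46), where Vwc2l was called too (−3.24 ± 0.35). Both of these genes are higher in cortical than in hippocampal excitatory nuclei. No gene was called within any single subfield or in cortical nuclei.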

How the data were processed

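Nuclei were profiled with 10x Chromium 3′ v3 chemistry, and the authors deposited raw UMI counts per gene and barcode, made per their processing notes with Cell Ranger 3.1.0 on mm10 (file headers name 3.0.2 for 4 of the 12 libraries). Barcodes with 200 to 4000 genes and at most 5% mitochondrial counts were kept, likely doublets were removed at 0.8% per 1000 barcodes (scanpy 1.11.5), and nuclei of all libraries were clustered (2000 variable genes, 30 components, 15 neighbours, resolution 1). Clusters were named from marker lists by a rule set after the clusters' leading genes were seen and before groups were compared. Of 51 clusters, 42 were named, and excitatory nuclei were clustered again into 41. Counts were summed per library and class.

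The edgeR 4.0.16 quasi-likelihood test (TMM scaling, filterByExpr, robust, sex as covariate) was fitted to 23 libraries of 4 groups, with Benjamini-Hochberg adjustment in each class over all genes tested and a threshold of 0.05. DESeq2 1.42.0 was the alternative tool. The SE beside an edgeR log2 fold change is the absolute fold change divided by the square root of its F statistic. It therefore draws on all libraries of the fit and not on the 2 groups alone. Shares and single-gene levels were compared by two-sided exact permutation over 924 arrangements, whose smallest p is 0.00217 (252 for Mef2c in CA3, with 5 libraries a group, and for values without the 2 libraries that stood apart). The script was tested on simulated data. Named genes were those that passed, or else the 5 of smallest p in a class, with Cgas, Sting1 and Mef2c and, for each list, passing members and the 4 of highest level. The comparison, its classes and its lists were chosen with earlier results of these data known. Other genes are said to be chosen after their values were seen, or were called by DESeq2, were the highest markers or had groups that did not overlap. Gene positions are from GENCODE vM21 (30934 of 31053 identifiers matched). Some genes that the naming rule selects are not reported here.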

Additional observations from a re-analysis of the deposited data

Results flagged for a closer look

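Values that stood far from the rest of their group by Dixon's test were found in 8 of the library groups among the 56 checked, and chance flags about 1 in 20. Ependymal nuclei made up 2.03% of P301S Cgas+/+ 5, and fibroblast nuclei 2.40% of P301S Cgas+/- 3. Nuclei in unnamed clusters made up 52.3% of P301S Cgas+/+ 3 and 26.2% of P301S Cgas+/- 1. CA3 nuclei made up 12.7% of excitatory nuclei in P301S Cgas+/+ 5 and 3.85% in P301S Cgas+/- 6. Mef2c stood at 443 CPM in the dentate granule nuclei of P301S Cgas+/+ 5 and at 61.4 CPM in the CA3 nuclei of P301S Cgas+/- 1.

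The edgeR test of the interaction of sex with the lost copy called 19 genes in pooled excitatory neurons, 2 in oligodendrocytes and 1 in inhibitory neurons. All 19 had a higher mean CPM in cortical than in hippocampal nuclei. The mean cortical share in P301S Cgas+/+ mice was 4.30% in females and 26.8% in males, and its part in the interaction was not tested. The inhibitory gene was Gm30382, with a male minus female effect of −1.54 ± 0.22 (SE, log2, adjusted p = 0.0146 by edgeR), and means of 49.2 and 94.3 CPM in P301S Cgas+/+ and P301S Cgas+/- females and 96.4 and 64.7 CPM in males. Among excitatory nuclei Gm30382 had a mean of 148.4 CPM in cortical and 100.9 CPM in hippocampal ones.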

How the results depend on the processing

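The edgeR counts of genes past the threshold changed with several settings, and the causes were not tested. DESeq2 called 150 genes in pooled excitatory, 5 in inhibitory, 8 in cortical excitatory and 1 in hippocampal excitatory neurons, where edgeR called 0, 1, 0 and 0. Without a filter on low counts edgeR called 30 genes in microglia, 4 in oligodendrocyte progenitors and 5 in inhibitory neurons, and 23 calls fell on the gene lists in place of 1. In inhibitory neurons it called 4 genes in the 12 libraries alone, 0 in nuclei with 1000 to 3000 genes and 0 without the 2 libraries with most unnamed nuclei, a setting added after the data were seen, as was the header version as covariate. With each library left out in turn, the inhibitory count ran from 0 to 2 and the pooled excitatory count from 0 to 23, the last without P301S Cgas+/+ 1.

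Some differences turned sign. The endothelial share difference was −0.0354 points with doubled doublet removal and −0.0758 without the 2 libraries, and the inhibitory share was −0.364 without the 2 libraries. With each library left out in turn, differences in share ran from −0.0375 to 0.107 points for endothelial, −0.510 to 0.986 for inhibitory, −0.0109 to 2.55 for astrocyte, −2.28 to 0.632 for oligodendrocyte, −0.119 to 0.361 for fibroblast and −9.78 to 1.46 for unnamed nuclei. In nuclei with 1000 to 3000 genes Cgas in microglia stood at −0.0246 on the log2(CPM + 1) scale and −0.00172 by edgeR, and Mef2c at −0.00512 in microglia and 0.0253 in dentate granule neurons. Without the low-count filter Mef2c was −0.00623 in microglia and 0.00107 in dentate granule neurons. With each library left out in turn, the Sting1 level in microglia ran from −0.12 to 0.19 and its edgeR value from −0.0263 to 0.22. Mef2c ran from −0.34 to 0.23 in CA3, −0.0433 to 0.0683 in microglia and −0.0387 to 0.0937 in dentate granule neurons, and Cgas from −0.33 to 0.28 in dentate granule and −0.32 to 0.0696 in hippocampal excitatory neurons.

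No paired analysis was possible because the labels carry no replicate numbers shared between the groups. The smallest sums held 21 nuclei in CA1, 35 in dentate granule and 55 in cortical neurons, which limits the precision of their values.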
